A study of Homo sapiens with 12 samples.

Results

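The genes described here are 38 genes of glucose breakdown and of the response to low oxygen, chosen by matching a fixed list of symbols to the deposited count table. They fall into 17 glycolytic enzymes and 21 regulators and targets of the hypoxia-inducible factors (HIF). All 38 were among the 26485 genes of the table and among the 14498 that passed a filter on low counts. ALDOC and CA9 passed that filter only through PEO1 libraries and SLC2A3 only through COV362 libraries. These 3 entered the tests through 1 line alone, so counts are also given without them. Expression was measured by RNA sequencing in COV362 and PEO1, established human cell lines of high-grade serous ovarian carcinoma, which received either DMSO as vehicle or prexasertib at 20 nM. Prexasertib blocks CHK1 and, less strongly, CHK2, kinases of the DNA damage checkpoint. The 4 groups were COV362 DMSO, COV362 prexasertib, PEO1 DMSO and PEO1 prexasertib, with 3 libraries each, lettered A, B and C. All cells were cultured in DMEM with serum, insulin and glutamine, and neither the treatment time nor the oxygen tension is given in the sources used here. The labels do not say whether the replicates were separate cultures, so p-values measure only the spread between these libraries, which may be technical.

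Glycolysis converts glucose to pyruvate in the cytosol, and lactate dehydrogenase can then reduce pyruvate to lactate, which leaves the cell through monocarboxylate transporters. HIF-1α and HIF-2α are transcription factor subunits that prolyl hydroxylases mark for destruction when oxygen is present. When oxygen is scarce they accumulate and, with ARNT, bind hypoxia response elements near genes for glucose uptake, glycolysis, pH control, mitophagy and collagen modification. Many carcinoma cells run glycolysis at a high rate even with oxygen, and several of these genes are also controlled by other factors such as MYC.

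Levels are given as CPM, a counts-per-million unit scaled by the trimmed mean of M-values. Library totals lay between 9390790 and 18262805 counts, the lowest being COV362 DMSO A. The 10 epithelial and ovarian carcinoma markers examined had group means above 1 CPM in all 4 groups. Their sum was higher in PEO1 DMSO (7380 to 8610 CPM) than in COV362 DMSO (2320 to 2860). MUC16 went the other way, with means of 4.87 CPM in PEO1 DMSO and 49.6 in COV362 DMSO. The summed level of 5 leukocyte markers lay between 31 and 60.2 CPM over the 4 groups, most of it CD68 (34.3 to 53.3 CPM), with CD14 at 4.27 in PEO1 DMSO and PTPRC at 0.0183 or less. The 5 fibroblast markers summed to 3.93 to 9.19 CPM, mostly COL1A1 (4.65 to 6.18) and, in COV362, PDGFRB (3.34 and 2.96), while LUM had 0 counts throughout. The 3 endothelial markers summed to 73.8 to 88.2 CPM in COV362 DMSO, mostly CDH5 (mean 73.9), and to 6.43 to 7.38 in PEO1 DMSO. The part of these markers in the results below was not tested. Levels of different genes are compared only as CPM per kilobase of exon (RPKM). A gene was called at an adjusted p under 0.05 over all 14498 tested genes (edgeR quasi-likelihood test). Fold changes are log2 values with their standard error (SE).

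In vehicle-treated cells, the abundant members were the enzymes of the lower part of glycolysis. GAPDH, glyceraldehyde-3-phosphate dehydrogenase, ranked highest per kilobase in each of the 4 groups, at 5566 ± 1350 RPKM in COV362 DMSO and 3821 ± 490.5 in PEO1 DMSO (SD, n = 3). In COV362 DMSO it was followed by PKM (pyruvate kinase, 1480 ± 120.2 RPKM), ENO1 (enolase, 1300 ± 97.6), LDHB (lactate dehydrogenase B, 1032 ± 89.7) and TPI1 (triosephosphate isomerase, 839.2 ± 148.6). PKM and ENO1 lay within about their spread of each other there, as did LDHB and TPI1. In PEO1 DMSO the second place was taken by LDHA (lactate dehydrogenase A, 1646 ± 169.6 RPKM), above LDHB (989.9 ± 117.8), ENO1 (919 ± 61.05) and TPI1 (839.6 ± 93.08), whose spreads overlapped. Counts of GAPDH, BNIP3 and PGAM1 are uncertain, since GENCODE names 62, 39 and 13 pseudogenes for them and how reads that match more than 1 place were counted is not given in the sources used here. GPI is listed on 2 sequences, which doubles part of its exon length, so its level per kilobase is not compared.

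Together the 17 enzymes took 2.28% ± 0.102 of all counts in PEO1 DMSO and 1.74% ± 0.0589 in PEO1 prexasertib (SD, n = 3). In COV362 the shares were 2.61% ± 0.161 and 2.66% ± 0.254. The 21 HIF regulators and targets held far smaller shares, 0.106% ± 0.0113 and 0.102% ± 0.00503 in PEO1 DMSO and prexasertib, and 0.082% ± 0.0151 and 0.0829% ± 0.0114 in COV362. In bulk RNA, a lower level per cell and fewer cells with that level cannot be told apart.

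The vehicle-treated lines differed in 26 of the 38 members. Of all tested genes, 29.1% were called higher in PEO1 and 28.6% lower, and of the members 10 were higher and 16 lower. Without ALDOC, CA9 and SLC2A3, 24 of 35 were called, 9 higher and 15 lower. Among the enzymes 2 were higher in PEO1, LDHA (1430, 1377 and 1326 CPM in COV362 DMSO A, B and C against 4331, 4557 and 3720 in PEO1 DMSO) and ALDOA. LDHA was 3.05-fold higher (log2 1.61 ± 0.123, adjusted p = 1.02e-07), with no overlap between the lines. ALDOA, an aldolase, was higher by a log2 of 0.61 ± 0.174 (adjusted p = 0.00831). The 11 enzymes that were lower in PEO1 included ENO2 (log2 -2.14 ± 0.176), an enolase known from neurons, and PKM (-1.26 ± 0.126). PFKP (-0.95 ± 0.113), the platelet form of phosphofructokinase, was also lower, as were PFKM, ENO1, GAPDH, GPI, PGAM1, HK1, PGK1 and HK2, with log2 values between -0.62 and -0.31.

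Some of these smaller differences between the lines rested on single libraries. GAPDH was no longer called without COV362 DMSO A (adjusted p = 0.172), PEO1 DMSO B (0.0854) or PEO1 DMSO C (0.116). PGAM1 lost its call without PEO1 DMSO A (0.0546) or C (0.0558). GPI lost its call without COV362 DMSO A (0.101) or C (0.0521) and without PEO1 DMSO B (0.0625) or C (0.0733). PGK1 lost it without COV362 DMSO B (0.164) or C (0.0918) and without PEO1 DMSO A (0.195) or C (0.103), and HK2 without COV362 DMSO A (0.0962), B (0.0718) or C (0.0698) and without PEO1 DMSO B (0.146) or C (0.135). With library totals in place of scaling factors, the calls of HK1 (0.0781), HK2 (0.121), PGK1 (0.197) and PGAM1 (0.0579) ended. An offset for exon length and GC content in each library ended those of HK2 (0.0554) and PGAM1 (0.126). HK2 and PGK1 were also not called with no low-count filter (0.116 and 0.0769) or with the vehicle groups fitted alone (0.0705 and 0.07).

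The HIF class parted the lines in both directions. EPAS1, which encodes HIF-2α, was at 9.68, 12.2 and 12.4 CPM in COV362 DMSO A, B and C and at 98.9, 120.6 and 116.1 in PEO1 DMSO, which is 9.70-fold higher in PEO1 (log2 3.28 ± 0.164, adjusted p = 1.56e-09). EGLN3, an oxygen-sensing prolyl hydroxylase, was 7.52-fold higher, and ADM, the vasodilator peptide adrenomedullin, 5.58-fold higher. NDRG1 (log2 1.48), SLC16A3 (1.45), BNIP3L (1.35) and P4HA2 (1.34) were the other members of the class higher in PEO1, along with CA9. CA9, a surface carbonic anhydrase used as a hypoxia marker, had 0 counts in the 3 COV362 DMSO libraries and 134 in the 3 PEO1 DMSO libraries, where it lay at 2.81, 2.44 and 2.53 CPM. Against a floor of 3 counts over the COV362 group, CA9 was at least 36-fold higher in PEO1, a bound that covers counting error only and describes a gene that passed the filter through PEO1 alone.

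Glucose transporters ran the other way. SLC2A1 (GLUT1) lay at 313, 299 and 325.3 CPM in COV362 DMSO A, B and C and at 116.4, 129 and 127 in PEO1 DMSO, 2.52-fold lower in PEO1 (log2 -1.33 ± 0.11, adjusted p = 2.09e-07). SLC2A3 (GLUT3), a high-affinity transporter that passed the filter only through COV362, lay at 4.60, 3.01 and 3.19 CPM in COV362 DMSO and at 0.261, 0.543 and 0.220 in PEO1 DMSO. P4HA1, a collagen prolyl hydroxylase (-0.88 ± 0.236), PFKFB3 (-0.69 ± 0.135) and PDK1, a kinase that restrains pyruvate dehydrogenase (-0.79 ± 0.288), were lower in PEO1 as well. The PDK1 libraries of the lines overlapped, and PDK1 lost its call without COV362 DMSO B (adjusted p = 0.132) or C (0.0867), without PEO1 DMSO A (0.108) or C (0.0938), and with library totals in place of scaling factors (0.0722). Not called were PFKL, ALDOC, TPI1, LDHB, PDK3, PFKFB4, CA12, BNIP3, EGLN1, HIF1A, KDM3A and ANKRD37. With the length and GC offset, BNIP3 (log2 0.25, adjusted p = 0.0266) and EGLN1 (0.32, 0.0492) were called higher and KDM3A (-0.39, 0.0066) lower.

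**Figure D1:**
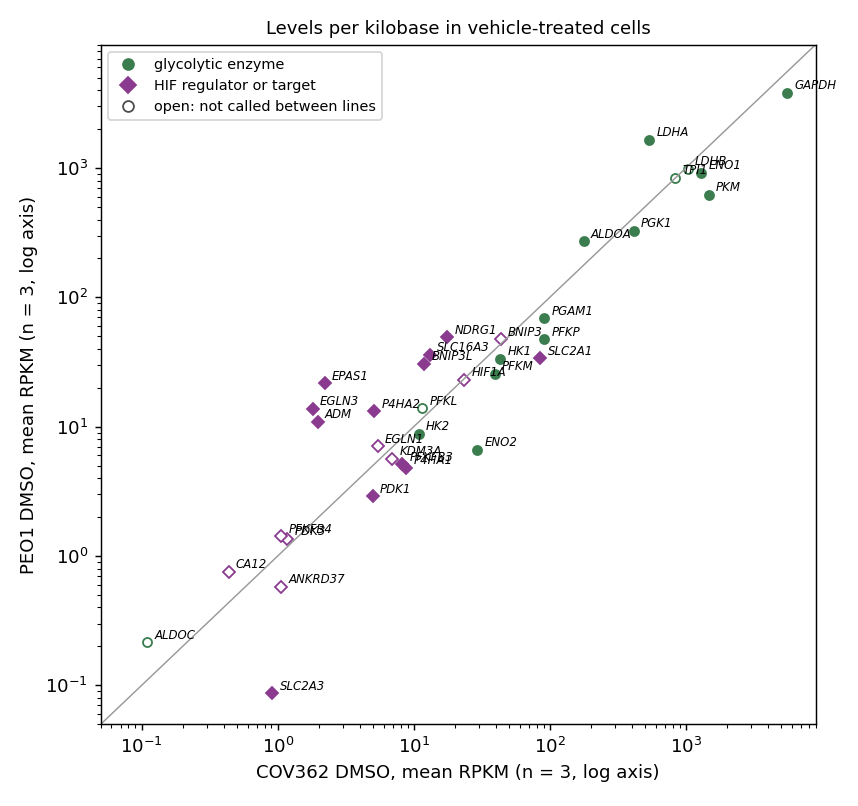
Mean RPKM of 36 members in vehicle-treated COV362 (horizontal) and PEO1 (vertical), both on log axes, n = 3 libraries each, with filled symbols for members called between the lines and the diagonal marking equal levels. GPI and CA9 are left out. EPAS1, EGLN3 and ADM lie far above the diagonal, and SLC2A3, ENO2, PKM and SLC2A1 lie below it.

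In PEO1, 10 of the 17 glycolytic enzymes fell with prexasertib and none rose. Of all tested genes, 14.6% were called lower and 14.7% higher in this comparison. The median log2 fold change of the enzymes was -0.44, beside 0.01 over all tested genes. The HIF class moved in both directions, with 4 of 21 members higher and 4 lower and a median of -0.20. Without ALDOC, CA9 and SLC2A3, 10 of 16 enzymes were lower, and of 19 members of the HIF class 4 were higher and 3 lower. Of the 18 members called, 13 kept their call in every one of 17 alternative fits, 6 of which leave out 1 library. The share of all called genes that did so was not computed.

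The transcripts of HK1, HK2 and GPI, whose products act at the start of glycolysis, fell. HK1 (hg38 chromosome 10, 69270000 to 69401881, plus strand), the hexokinase that traps glucose as glucose-6-phosphate, lay at 144.7, 145.8 and 138.8 CPM in PEO1 DMSO A, B and C and at 67.8, 81.1 and 73.8 with prexasertib. The treated libraries were all far below the vehicle libraries, and HK1 fell 1.93-fold (log2 -0.95 ± 0.112, adjusted p = 6.14e-05). HK2, the hexokinase often raised in tumours, fell by 0.50 ± 0.121 on the log2 scale (adjusted p = 0.00745). GPI, which isomerises glucose-6-phosphate to fructose-6-phosphate, fell by 0.69 ± 0.151 (adjusted p = 0.00402).

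Phosphofructokinase, the committed step, has 3 subunit genes. PFKL (chromosome 21, 44300034 to 44327381, plus strand), the liver form, went from 44.6, 43.4 and 54.1 CPM to 16.8, 17.9 and 24.1, with no overlap. PFKL fell 2.42-fold (log2 -1.27 ± 0.19, adjusted p = 0.000336), the lowest value among the 17 enzymes in PEO1. PFKP went from 138.9, 139.1 and 144 CPM to 87.1, 78.9 and 90.4, a fall of 0.72 ± 0.113 on the log2 scale (adjusted p = 0.000459). PFKM, the muscle form, was at log2 -0.31 ± 0.151 (adjusted p = 0.134). With an offset for exon length and GC content in each library, PFKL was at log2 -0.73 (adjusted p = 0.000285), no longer below HK1 (-0.91), and PFKP was at -0.45 (0.00273).

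Further along the pathway, ALDOA (log2 -0.59 ± 0.174, adjusted p = 0.0202), PGK1 (phosphoglycerate kinase, -0.43 ± 0.141, 0.0331), ENO1 (-0.48 ± 0.124, 0.0104) and PKM (-0.62 ± 0.125, 0.00247) fell. LDHA was at 4331, 4557 and 3720 CPM with vehicle and at 3383, 3135 and 3077 with prexasertib. All 3 treated values lay below the vehicle values, and LDHA fell 1.31-fold (log2 -0.39 ± 0.121, adjusted p = 0.0247). Some of these smaller falls lost their calls in fits with 1 PEO1 library left out. LDHA was no longer called without DMSO A (adjusted p = 0.0502), DMSO B (0.0653), prexasertib B (0.0578) or prexasertib C (0.0625). PGK1 lost its call without DMSO B (0.0962), DMSO C (0.0531) or prexasertib A (0.0865) and with library totals in place of scaling factors (0.0914), and ALDOA lost it without prexasertib B (0.0565).

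The other 7 enzymes were not called in PEO1. GAPDH went from 8223, 7083 and 6384 CPM to 5903, 4732 and 5340. The groups did not overlap, but the difference missed the threshold (log2 -0.44 ± 0.21, adjusted p = 0.13), and with the length and GC offset it was -0.08. PGAM1 (phosphoglycerate mutase, log2 -0.17), TPI1 (-0.16) and LDHB (-0.15) were also not called. ENO2 stood at log2 0.31 ± 0.172 (adjusted p = 0.188), and with the length and GC offset it was called higher (0.49, adjusted p = 0.00226). ALDOC, the brain aldolase, stayed between 0.130 and 1.59 CPM in PEO1 (log2 1.53 ± 0.845, adjusted p = 0.191).

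**Figure D2:**
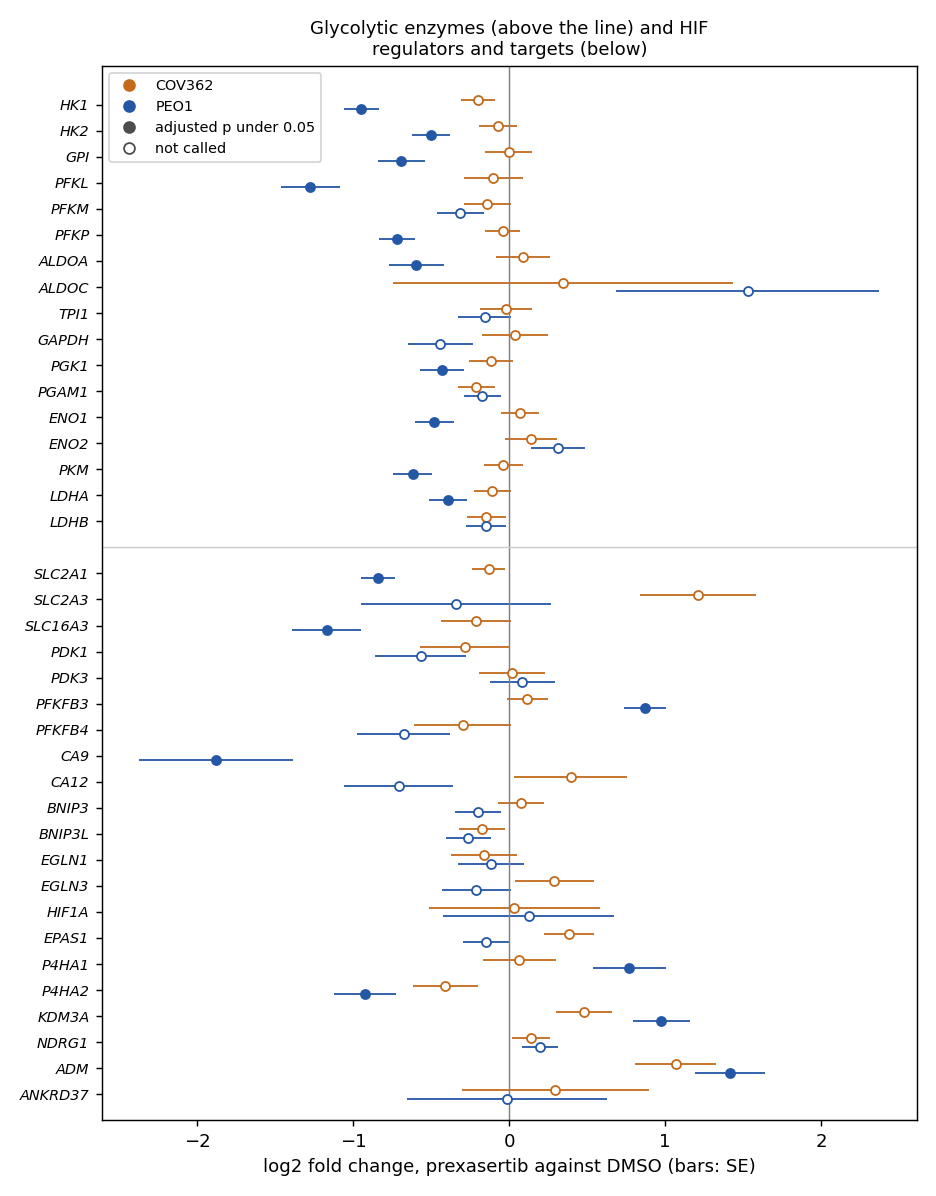
Log2 fold change, prexasertib against DMSO, for each member in COV362 (orange) and PEO1 (blue), with bars for the SE and filled points for an adjusted p under 0.05. In PEO1, 10 enzymes lie left of 0 as filled points and none lies to the right, while the HIF class has 4 filled points on each side. No COV362 point is filled, and CA9 is not drawn for COV362.

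SLC2A1, SLC16A3, CA9 and P4HA2 of the HIF class fell in PEO1, while the related transporter SLC2A3 and carbonic anhydrase CA12 were not called. SLC2A1 lay at 116.4, 129 and 127 CPM with vehicle and at 73.2, 64.4 and 70.1 with prexasertib, a 1.79-fold fall with no overlap (log2 -0.84 ± 0.109, adjusted p = 0.000118). SLC16A3 (MCT4), the transporter that exports lactate, went from 100.1, 77.8 and 89.8 CPM to 41.5, 32.8 and 44.8. Every treated value was below every vehicle value, and SLC16A3 fell 2.25-fold (log2 -1.17 ± 0.221, adjusted p = 0.0016). With the length and GC offset its change was -0.67 (adjusted p = 0.000255).

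CA9 was low in PEO1 and lower with the drug, at 0.998, 0.440 and 0.664 CPM against 2.81, 2.44 and 2.53 with vehicle. It fell by 1.88 ± 0.494 on the log2 scale (adjusted p = 0.0141), and it lost its call without prexasertib B (adjusted p = 0.0685) or prexasertib C (0.056). All 3 vehicle libraries of CA9 and 2 of the treated ones reached the level the filter asks for, 0.610 CPM. P4HA2, a collagen prolyl 4-hydroxylase subunit, went from 35.3, 38.1 and 33.6 CPM to 19.0, 19.0 and 18.5. The treated libraries agreed closely, and P4HA2 fell 1.90-fold (log2 -0.92 ± 0.2, adjusted p = 0.00389).

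A separate group of HIF targets rose in PEO1. ADM went from 20.9, 15.5 and 15.8 CPM to 54.5, 39.6 and 45.2, a 2.67-fold rise with no overlap (log2 1.42 ± 0.225, adjusted p = 0.000512). KDM3A, a histone H3 lysine 9 demethylase, went from 25.1, 29.8 and 28.4 CPM to 53.6, 57.3 and 53.1. It rose 1.97-fold (log2 0.98 ± 0.18, adjusted p = 0.00138).

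PFKFB3 makes fructose-2,6-bisphosphate, an activator of phosphofructokinase. It lay at 23.1, 24.8 and 26.6 CPM with vehicle and at 50.2, 41.4 and 44.6 with prexasertib, a 1.83-fold rise (log2 0.87 ± 0.134, adjusted p = 0.00042) while all 3 phosphofructokinase genes had values below 0. P4HA1, a gene related to P4HA2, went from 10.8, 16.6 and 15.9 CPM to 21.6, 29.3 and 23.1. The groups did not overlap, and P4HA1 rose by a log2 of 0.77 ± 0.235 (adjusted p = 0.0245). Of the 4 members that rose, P4HA1 alone lost its call with 1 library left out: it was not called without DMSO A (adjusted p = 0.143), DMSO C (0.0615), prexasertib B (0.141) or prexasertib C (0.061).

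The remaining 13 members of the HIF class were not called in PEO1, among them the HIF subunit genes themselves. EPAS1 lay at 98.9, 120.6 and 116.1 CPM with vehicle and at 91.7, 103.4 and 107.9 with prexasertib, overlapping ranges (log2 -0.15 ± 0.147, adjusted p = 0.48). PDK1 (log2 -0.57 ± 0.292), PFKFB4 (-0.68 ± 0.3) and CA12 (-0.71 ± 0.347) had treated libraries below all vehicle libraries but missed the threshold (adjusted p = 0.161, 0.105 and 0.141). The mitophagy receptors BNIP3 (-0.20) and BNIP3L (-0.26), the oxygen sensors EGLN1 (-0.12) and EGLN3 (-0.21), and NDRG1 (0.20), PDK3 (0.08), SLC2A3 (-0.34) and ANKRD37 (-0.02) were within 0.4 of 0. With the length and GC offset, PDK1 (-0.92, adjusted p = 0.00119), BNIP3L (-0.57, 0.000694) and EGLN1 (-0.39, 0.0321) were called lower. The summed CPM of the 10 epithelial and ovarian carcinoma markers also moved in this comparison, from 7380 to 8610 in PEO1 DMSO to 3710 to 4380 with prexasertib. EPCAM (mean 418 to 449) and MUC16 (4.87 to 5.33) went the other way. The sum of 3 endothelial markers lay at 6.43 to 7.38 CPM with vehicle and at 1.32 to 3.62 with prexasertib. It followed CDH5 (mean 6.56 to 1.58), while PECAM1 (0.0978 to 0.258) and VWF (0.277 to 0.628) were higher. The part of these markers in the changes of the members was not tested.

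**Figure D3:**
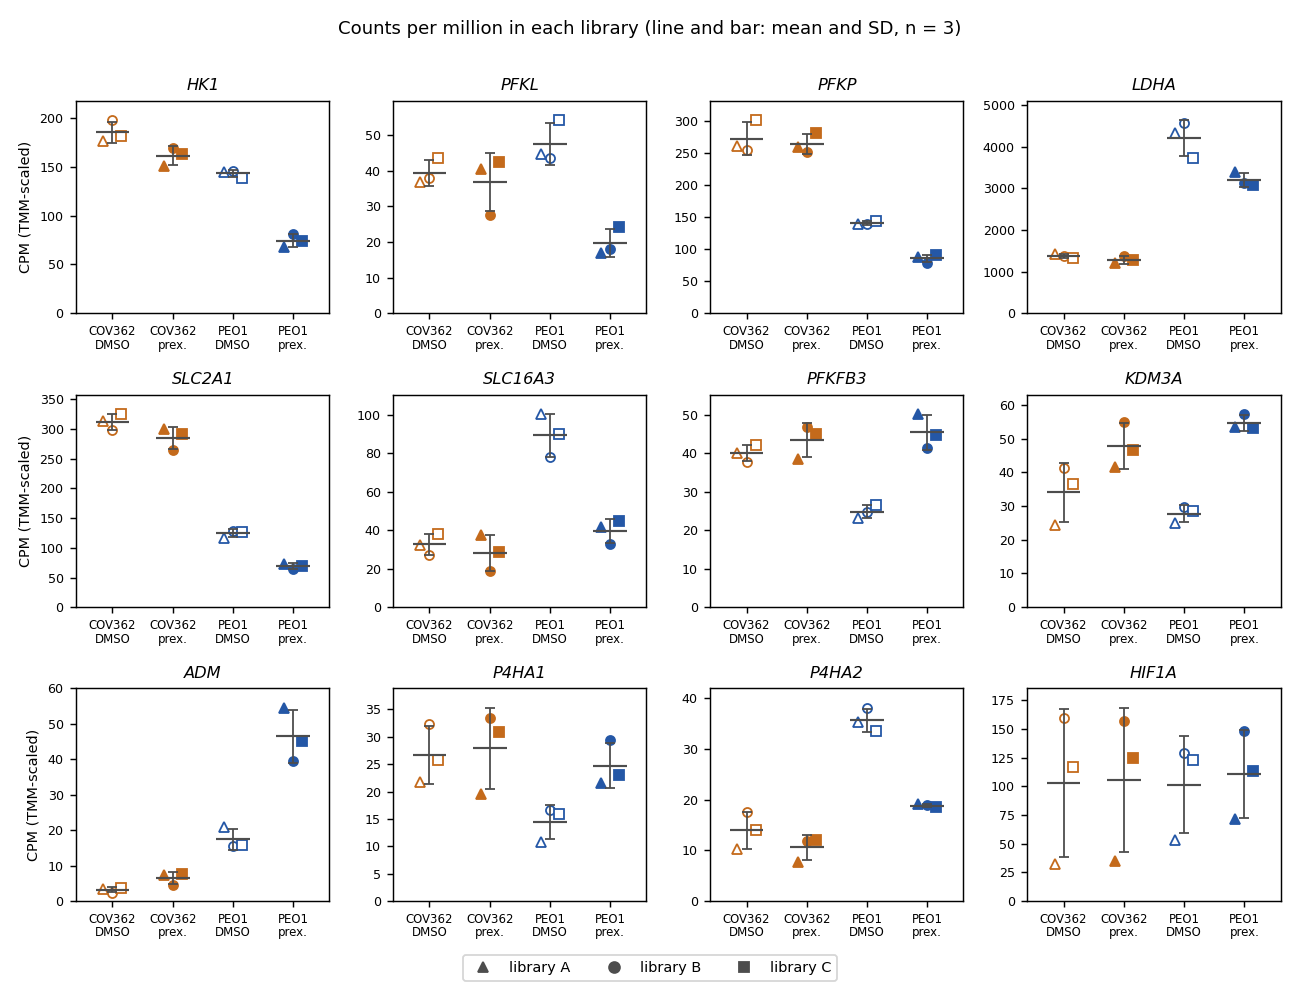
CPM of 12 members in each library, with open symbols for DMSO, filled symbols for prexasertib, shapes for the library letter, and a line and bar for the mean and SD (n = 3). In PEO1 the treated libraries of HK1, PFKL, PFKP, LDHA, SLC2A1, SLC16A3 and P4HA2 sit below the vehicle libraries and those of PFKFB3, KDM3A, ADM and P4HA1 sit above. HIF1A is lowest in the A library of every group.

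In COV362, none of the 38 members was called by edgeR, where 0.828% of tested genes were. At an unadjusted p under 0.05, which 12.6% of tested genes met, 4 members were higher and none lower. DESeq2, which called 3.61% of genes, called ADM higher (adjusted p = 0.00737) and no other member, and limma-voom, which called 0.904%, called none. The median log2 fold change was -0.04 for the enzymes and 0.08 for the HIF class, beside -0.01 over all tested genes. All 17 enzymes lay between -0.21 (PGAM1) and 0.34 (ALDOC, under 1 CPM). In simulated counts for COV362, the edgeR fit called 5% of genes changed by a log2 of 0.5. A missing call therefore does not show that a member was unchanged.

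Libraries of the same letter all correlated over 0.1 in COV362, the criterion used for pairing. Prexasertib C, however, correlated at 0.138 with DMSO B and at 0.133 with DMSO C. The fit with a replicate block is given beside these values. It called 13.6% of all tested genes and 4 members, all of the HIF class and all higher. ADM went from 3.27, 2.35 and 3.78 CPM in DMSO A, B and C to 7.45, 4.50 and 7.65 (log2 1.07 ± 0.261, adjusted p = 0.0763, and 0.000234 with the block). Each treated library was above every vehicle library. KDM3A went from 24.3, 41.4 and 36.5 CPM to 41.4, 55.0 and 46.6 (log2 0.48 ± 0.179, adjusted p = 0.269, and 0.00237 with the block). SLC2A3 went from 4.60, 3.01 and 3.19 CPM to 5.82, 11.8 and 6.95 (log2 1.21 ± 0.374, adjusted p = 0.167, and 0.0202 with the block).

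EPAS1 in COV362 was at 9.68, 12.2 and 12.4 CPM with vehicle and at 12.3, 16.5 and 16.3 with prexasertib. Its ranges overlapped, yet each letter was higher with the drug (log2 0.38 ± 0.159, adjusted p = 0.323, and 0.0216 with the block). The sum of the 3 endothelial markers, mostly CDH5, lay at 73.8 to 88.2 CPM with vehicle and 46.5 to 51 with prexasertib in COV362, and its part in these values was not tested. Without prexasertib B, ADM was called in the fit without a block (log2 1.28, adjusted p = 0.0334).

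None of the members that fell in PEO1 was called in COV362 in the main fit or with the replicate block. With the block and the length and GC offset together, 6 members were called lower in COV362, 4 of them enzymes. That fit called 2139 of all tested genes. HK1 was at 176.3, 197.6 and 181.2 CPM with vehicle and at 150.9, 169.5 and 163.2 with prexasertib, not overlapping but not called (log2 -0.20 ± 0.111, adjusted p = 0.502). PFKL lay at 36.8, 37.9 and 43.5 CPM and at 40.5, 27.6 and 42.3, with overlap (log2 -0.10 ± 0.188, adjusted p = 0.902). PFKP was at 260.1, 253.4 and 300.6 CPM and at 259.5, 251.2 and 280.2 (log2 -0.04 ± 0.111).

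SLC2A1 lay at 313, 299 and 325.3 CPM with vehicle and at 299.5, 264.4 and 291.8 with the drug, overlapping (log2 -0.13 ± 0.108, adjusted p = 0.697). LDHA was at 1430, 1377 and 1326 CPM and at 1197, 1371 and 1270 (log2 -0.11 ± 0.12). SLC16A3 was at 32.3, 27.3 and 38.1 CPM and at 37.4, 18.7 and 28.5, with 1 treated value below the vehicle range and the others inside it (log2 -0.21 ± 0.223). P4HA2 was at 10.3, 17.5 and 13.9 CPM and at 7.78, 11.9 and 11.9, overlapping (log2 -0.41 ± 0.207, adjusted p = 0.451).

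PFKFB3, which rose in PEO1, stood at 40.0, 37.9 and 42.2 CPM with vehicle and at 38.4, 46.8 and 45.0 with prexasertib in COV362 (log2 0.12 ± 0.133, adjusted p = 0.799). P4HA1 stood at 21.8, 32.3 and 25.7 CPM and at 19.5, 33.4 and 30.8 (log2 0.07 ± 0.232). GAPDH lay at 13430, 8618 and 9543 CPM with vehicle and at 14140, 8304 and 9993 with prexasertib. It differed more between letters than between treatments there (log2 0.04 ± 0.21). CA9 had 0 counts in the vehicle group and 1 count in the treated group, so no fold is given.

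The difference between the lines' responses was tested directly for every gene, and 6.10% of all tested genes were called. Of the 38 members 5 were called. HK1 (PEO1 minus COV362, log2 -0.75 ± 0.158, adjusted p = 0.0173), PFKL (-1.17 ± 0.266, 0.0231), PFKP (-0.68 ± 0.158, 0.0259) and SLC2A1 (-0.71 ± 0.153, 0.0185) fell more in PEO1, and PFKFB3 (0.75 ± 0.189, 0.0347) rose more. HK1 kept its call in every alternative and with each library left out in turn. The difference was not called for ADM (log2 0.35 ± 0.345, adjusted p = 0.558) or KDM3A (0.50 ± 0.253, 0.234), which had values above 0 in both lines. With the length and GC offset, the ADM difference was called (0.89, adjusted p = 0.0276). The replicate block pairs the libraries by letter in both lines, although the PEO1 letters did not meet the criterion for pairing. With it, 33.8% of all tested genes and 18 members were called, 15 lower and 3 higher. They included KDM3A (log2 0.48, adjusted p = 0.0152), P4HA1 (0.72, 0.00407), SLC16A3 (-0.91, 7.36e-05), GPI (-0.68, 1.22e-05), ALDOA (-0.67, 3.57e-05), PKM (-0.58, 0.000115) and ENO1 (-0.55, 0.000193).

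The calls for the other 4 members ended in some of the fits with 1 library left out. Without COV362 DMSO B or COV362 prexasertib C, 390 and 379 of all tested genes were called, beside 885 in the main fit. The log2 values in those fits were -0.68 and -0.70 for SLC2A1 and -1.15 and -1.06 for PFKL. They were -0.63 and -0.63 for PFKP, and 0.79 and 0.78 for PFKFB3. SLC2A1 was not called without COV362 DMSO B (adjusted p = 0.0508) or COV362 prexasertib C (0.0512). PFKL was not called without COV362 DMSO B (0.055), COV362 prexasertib C (0.0689), PEO1 DMSO C (0.0535), PEO1 prexasertib A (0.051) or PEO1 prexasertib B (0.0546), nor without all A libraries (0.0529) or with the length and GC offset (-0.53, 0.065). PFKP was not called without COV362 DMSO B (0.0707), COV362 prexasertib C (0.0749), PEO1 DMSO A (0.0505), PEO1 DMSO C (0.0516) or PEO1 prexasertib B (0.0659), nor with that offset (-0.32, 0.174). PFKFB3 kept its call among the fits with 1 library left out only without COV362 DMSO A or COV362 prexasertib B, and the adjusted p without each of the other 10 lay between 0.0599 and 0.122. PFKFB3 was also not called with no low-count filter (0.0908), without all A libraries (0.107) or with library totals in place of scaling factors (0.062).

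Ratios of related genes within a library were taken per kilobase, without the length and GC offset. With 3 libraries against 3 the exact permutation test cannot give a two-sided p under 0.1, which is 0.156 after adjustment over the 14 pairs in PEO1, so none of these ratios can pass a threshold of 0.05. The ratios are a description, since those of other gene pairs were not computed. In PEO1, P4HA2 to P4HA1 went from 3.63, 2.56 and 2.34 to 0.980, 0.719 and 0.891, so that P4HA1 came to exceed P4HA2 per kilobase. PFKFB4 to PFKFB3 went from 0.311, 0.229 and 0.294 to 0.0766, 0.107 and 0.104.

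Within the phosphofructokinase family, PFKP to PFKL went from 3.58, 3.68 and 3.06 to 5.96, 5.06 and 4.31 in PEO1. PFKM to PFKL went from 1.74, 2.23 and 1.62 to 3.66, 4.03 and 3.19. With the length and GC offset the PEO1 change of PFKL was log2 -0.73 in place of -1.27. That of PFKP was -0.45 in place of -0.72, and that of PFKM stayed at -0.31, so these 2 shifts are smaller with the offset. LDHB to LDHA moved from 0.611, 0.603 and 0.587 to 0.683, 0.746 and 0.710, a small shift between lactate dehydrogenase forms. HK2 to HK1, ENO2 to ENO1, PDK3 to PDK1 and CA12 to CA9 were also higher in every treated PEO1 library. In COV362, P4HA2 to P4HA1 lay at 0.525, 0.605 and 0.603 with vehicle and at 0.444, 0.396 and 0.432 with prexasertib. SLC2A3 to SLC2A1 lay at 0.0137, 0.00939 and 0.00915 and at 0.0181, 0.0417 and 0.0222, each pair with an exact permutation p of 0.1 and 0.6 after adjustment over 12 pairs.

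**Figure D4:**
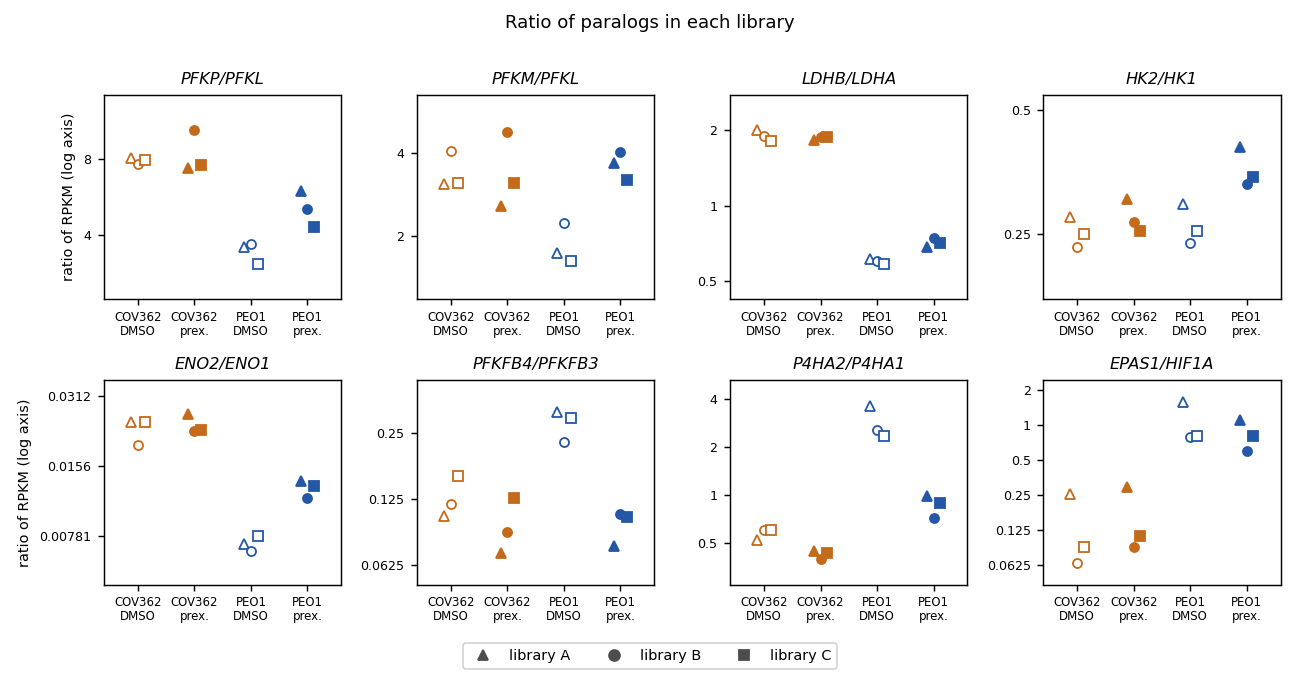
Ratio of RPKM between paralogs in each library, on log axes, for 8 pairs, with open symbols for DMSO and filled symbols for prexasertib. No length and GC offset was applied. In PEO1 the PFKP/PFKL and PFKM/PFKL ratios are higher and the PFKFB4/PFKFB3 and P4HA2/P4HA1 ratios lower in every treated library. EPAS1/HIF1A is highest in the A library of every group.

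HIF1A, which encodes HIF-1α, varied with the library letter rather than with treatment. It lay at 32.3, 159.8 and 116.6 CPM in COV362 DMSO A, B and C and at 35.3, 156.5 and 125 with prexasertib. In PEO1 it lay at 53.1, 128.8 and 122.6 CPM with vehicle and at 71.1, 147.8 and 113.6 with prexasertib. The A library was the lowest in each of the 4 groups, by a mean log2 of -1.03 from its group. The drug changes were log2 0.03 ± 0.549 in COV362 and 0.13 ± 0.548 in PEO1, neither called. Of the HIF1A exon length, 27.8% overlaps HIF1A-AS2 on the opposite strand, and the library kit does not keep the strand, so reads of both cannot be told apart. For ANKRD37 the overlap with UFSP2 is 45.4%. The other overlaps reach at most 7.21%, that of P4HA2 with its antisense gene.

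Promoters of the members were searched for the core of the hypoxia response element, spelled ACGTG or GCGTG on either strand. The 250 bases before the transcription start were taken from RefSeq on GRCh38.p14, the build family of the deposited hg38 positions. An entry was found for 35 of the 38 genes, and SLC2A3, BNIP3L and NDRG1 had none. Where a gene had several entries, the one nearest to the outermost exon in the count table was used. A core was present for 23 of the 35 genes. Over all entries of the members, 60.3% of 63 held a core, beside 43.2% of all 35114 promoters of that length. The palindrome CACGTG holds ACGTG on both strands and counts on each. All 4 genes that rose in PEO1 held a core, as did 8 of the 14 that fell and 11 of the 17 with an entry that were not called. These counts depend on the entry used. Other entries of HK1, PFKP and SLC16A3, which fell, held cores, as did other entries of PFKM, TPI1 and PDK1, which were not called. A match describes letters only and is not a binding site.

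The 4 members that rose are shown with 4 that fell, each 5′ to 3′ with the cores in capitals, so that genes of opposite direction can be compared. Each of the first 4 held 1 core. LDHA and PGK1 fell with 5 and 3 cores, CA9 with 1, and SLC2A1 with none in this window.
ADM, chr11:10304823-10305072, plus strand: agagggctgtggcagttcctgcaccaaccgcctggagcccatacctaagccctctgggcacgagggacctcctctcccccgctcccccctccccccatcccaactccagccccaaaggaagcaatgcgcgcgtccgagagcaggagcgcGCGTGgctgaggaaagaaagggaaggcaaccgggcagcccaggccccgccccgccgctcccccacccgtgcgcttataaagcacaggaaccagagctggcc
PFKFB3, chr10:6144671-6144920, plus strand: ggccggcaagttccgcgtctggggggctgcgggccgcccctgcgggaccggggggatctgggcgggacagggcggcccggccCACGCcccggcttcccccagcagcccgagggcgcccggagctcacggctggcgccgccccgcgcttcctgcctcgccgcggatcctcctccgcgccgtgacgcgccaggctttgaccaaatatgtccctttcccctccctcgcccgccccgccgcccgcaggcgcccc
KDM3A, chr2:86441121-86441370, plus strand: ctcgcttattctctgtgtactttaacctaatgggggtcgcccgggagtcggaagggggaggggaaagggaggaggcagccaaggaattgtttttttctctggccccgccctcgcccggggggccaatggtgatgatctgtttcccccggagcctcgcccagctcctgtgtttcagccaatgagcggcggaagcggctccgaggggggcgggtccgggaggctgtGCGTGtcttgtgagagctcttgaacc
P4HA1, chr10:73096867-73097116, minus strand: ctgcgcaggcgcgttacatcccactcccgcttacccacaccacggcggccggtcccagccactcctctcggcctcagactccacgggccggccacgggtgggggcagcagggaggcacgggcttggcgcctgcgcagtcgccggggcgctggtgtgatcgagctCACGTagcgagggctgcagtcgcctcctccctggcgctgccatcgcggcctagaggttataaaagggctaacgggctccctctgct
LDHA, chr11:18394313-18394562, plus strand: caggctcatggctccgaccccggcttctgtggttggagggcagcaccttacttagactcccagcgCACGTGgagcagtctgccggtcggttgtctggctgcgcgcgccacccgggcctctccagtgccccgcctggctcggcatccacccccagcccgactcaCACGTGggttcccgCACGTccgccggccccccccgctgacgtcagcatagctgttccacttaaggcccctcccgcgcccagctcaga
PGK1, chrX:78103998-78104247, plus strand: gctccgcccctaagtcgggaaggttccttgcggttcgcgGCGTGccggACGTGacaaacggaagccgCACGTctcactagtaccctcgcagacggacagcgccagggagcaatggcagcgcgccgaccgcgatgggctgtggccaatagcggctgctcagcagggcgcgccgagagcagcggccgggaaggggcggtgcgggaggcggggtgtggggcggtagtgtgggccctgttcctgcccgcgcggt
CA9, chr9:35673678-35673927, plus strand: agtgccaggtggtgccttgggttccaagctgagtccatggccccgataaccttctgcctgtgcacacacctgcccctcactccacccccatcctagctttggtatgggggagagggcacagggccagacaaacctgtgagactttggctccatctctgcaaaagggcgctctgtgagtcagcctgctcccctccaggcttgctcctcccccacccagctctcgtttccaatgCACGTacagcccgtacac
SLC2A1, chr1:42958869-42959118, minus strand: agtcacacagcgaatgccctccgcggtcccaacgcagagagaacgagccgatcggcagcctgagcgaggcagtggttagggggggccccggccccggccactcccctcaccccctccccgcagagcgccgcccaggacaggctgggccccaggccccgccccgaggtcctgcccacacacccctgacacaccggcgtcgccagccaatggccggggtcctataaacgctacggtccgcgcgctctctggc

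Other genes of the same pathways, taken from lists chosen alongside the members, were counted in the same fits. Of 38 tested genes of the HIF pathway outside the members, 8 were higher (21.1%, beside 14.7% of all tested genes) and 5 lower (13.2%, beside 14.6%) in PEO1 with prexasertib. TXNIP, an inhibitor of glucose uptake, rose from 23.9 ± 2.99 to 370.7 ± 21.6 CPM (SD, n = 3, log2 3.95 ± 0.172, adjusted p = 7.75e-09). ARNT2, a partner subunit of HIF, fell from 7.34 ± 0.983 to 3.38 ± 0.109 CPM (log2 -1.12 ± 0.209, adjusted p = 0.00153). BHLHE41 was also called higher, with a mean of 0.503 CPM over the PEO1 libraries. Which libraries carried it past the low-count filter was not examined. In COV362 edgeR called only BHLHE40 of that list, a HIF-responsive repressor that rose from 44.2 ± 0.469 to 72.2 ± 4.29 CPM (log2 0.71 ± 0.105, adjusted p = 0.00645).

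Of 19 tested further genes of glycolysis and lactate transport, 2 were higher (10.5%, beside 14.7% of all tested genes) and 4 lower (21.1%, beside 14.6%) in PEO1. TIGAR, a phosphatase of fructose-2,6-bisphosphate (log2 0.77 ± 0.154, adjusted p = 0.00247), and BPGM (0.51 ± 0.157, 0.0252) rose. The glucose transporters SLC2A10 (log2 -1.09 ± 0.312, adjusted p = 0.0177) and SLC2A6 (-0.86 ± 0.274, 0.0295) fell, as did SLC2A8 (-0.85 ± 0.295, 0.0438) and the lactate transporter chaperone BSG (-0.55 ± 0.194, 0.0469), and limma-voom did not call SLC2A6 (0.0572). None of the 19 was called in COV362 by edgeR, DESeq2 or limma-voom, which called 0.828%, 3.61% and 0.904% of all tested genes. At an unadjusted p under 0.05, which 12.6% of tested genes met in COV362, 3 were lower and 0 higher. There the lowest p was that of SLC16A7 (log2 -0.59 ± 0.227, adjusted p = 0.282, and 0.0326 with the replicate block), a monocarboxylate transporter.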

How the data were processed

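Column-purified RNA went into unstranded TruSeq v2 libraries, per the labels' protocols. The submitters' processing notes name STAR, Subread, featureCounts 1.4.6 and hg38. The authors deposited whole-number counts for each gene without normalization, with exon positions and lengths per the file headers.

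The members and gene lists were chosen with earlier results of these data known. All 12 libraries in 4 groups entered 1 edgeR 4.0.16 quasi-likelihood fit in R 4.3.3 with TMM scaling (filterByExpr, minimum count 10, minimum total 15, 8 residual degrees of freedom). The 4 comparisons were adjusted by Benjamini-Hochberg over 14498 genes, with calls under 0.05. The script was tested on simulated counts in which few genes were changed. Of genes changed by a log2 of 1, it called 44% for COV362 and 55% for PEO1. Of genes changed by a log2 of 0.5, it called 5% and 7.07%.

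Alternatives were DESeq2 1.42.0, limma-voom (limma 3.58.1), RLE scaling, other low-count filters, a loess offset on exon length and GC content (GC known for 94.5% of tested genes, from GENCODE v29 transcripts), fewer libraries, and the replicate block. Library totals without scaling factors were added after seeing the data. Deviations of same-letter libraries correlated at 0.41, 0.423 and 0.133 in COV362 (A, B, C), all over 0.1, so letters were taken to pair those samples. COV362 prexasertib C correlated at 0.138 with DMSO B, so pairing of letter C is not clear there. In PEO1 they were at 0.302, 0.171 and 0.0813, so letters were not taken to pair those samples.

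All 38 members are named. CPM is written out per library for the 10 members with the largest change among those called in a drug comparison (mean of at least 1 CPM), those called in the difference, and HIF1A, EPAS1, LDHA, GAPDH, SLC2A1 and CA9. SLC2A3 in COV362 was added after its values were seen. Context lists give the 2 largest called changes among genes that averaged 1 CPM or more in that line, or the lowest p. BHLHE41, TIGAR, BPGM, SLC2A8, BSG and TKTL1 were added after their values were seen.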

Additional observations from a re-analysis of the deposited data

Results flagged for a closer look

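For 5 members the response to prexasertib differed between the lines by a test of the difference itself (edgeR, interaction contrast, adjusted over all tested genes, of which 6.10% were called). The log2 change in PEO1 minus that in COV362 was -0.748 for HK1 (adjusted p = 0.0173), with changes of -0.95 in PEO1 and -0.20 in COV362. It was -1.17 for PFKL (0.0231), with -1.27 and -0.10. For PFKP it was -0.678 (0.0259), with -0.72 and -0.04. For SLC2A1 it was -0.712 (0.0185), with -0.84 and -0.13. For PFKFB3 it was 0.753 (0.0347), with 0.87 and 0.12. In each case all 3 treated PEO1 libraries lay beyond all 3 vehicle libraries. That also held for members not called in PEO1, such as PFKM and GAPDH, and the share over all tested genes was not computed. The length and GC offset ended the calls for PFKL (-0.53, adjusted p = 0.065) and PFKP (-0.32, 0.174). Leaving out single libraries ended the calls for SLC2A1, PFKL, PFKP and PFKFB3, as given in the report, but not that for HK1.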

How the results depend on the processing

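In PEO1 the count of 18 called members stayed between 17 and 27 over 11 alternatives and between 14 and 17 with 1 library left out. All 18 stayed called by DESeq2 and limma-voom. Of all tested genes the main fit called 4249 in PEO1, the alternatives 4048 to 7446, and the fits with 1 library left out 3011 to 3361. The count of 26 between the vehicle-treated lines stayed between 21 and 29, and between 21 and 24 with 1 library left out. Of all tested genes the main fit called 8361 there, the alternatives 7390 to 10259, and the fits with 1 library left out 7513 to 8129. In COV362 the count of 0 became 1 with DESeq2 (ADM), 1 with no low-count filter (ADM, adjusted p = 0.0423) and 1 without all A libraries (SLC2A3, 0.0347). It became 2 with the length and GC offset (ADM and KDM3A), 4 with the replicate block, and 10 with the replicate block and the offset together. Of those 10, 4 were higher, all of the HIF class, and 6 lower, 4 of them enzymes. The COV362 count lay between 0 and 1 with 1 library left out. The difference count of 5 became 10 with DESeq2, 8 with the offset, 18 with the replicate block and 19 with both, and lay between 1 and 10 with 1 library left out. It was 1 without COV362 DMSO B or prexasertib C, 2 without PEO1 DMSO C or prexasertib B, 3 without PEO1 DMSO A or prexasertib A, 8 without COV362 DMSO A and 10 without COV362 prexasertib B. Of the 14498 tested genes, the main fit called 120 in COV362 and DESeq2 524. The offset called 465 there, the block 1977 and both 2139. In the difference the main fit called 885 genes and DESeq2 1925. With 1 library left out, between 328 and 1756 genes were called in the difference. The offset called 1214 in the difference, the block 4906 and both 3566.

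The PEO1 letters did not meet the criterion for pairing, since the C libraries correlated at 0.0813, although A did at 0.302 and B at 0.171. The replicate block there called 24 members (6 higher, 18 lower), beside 7446 of the 14498 tested genes. PEO1 DMSO C correlated best with prexasertib B (0.222), not with its own letter. Between the vehicle-treated lines the block added EGLN1 (adjusted p = 0.0151) and KDM3A (0.0403). For that comparison each letter had a common effect in both lines, although the labels do not say that letters match between the lines. The median of the enzymes in PEO1 lay between -0.578 and -0.448 with 1 library left out, the lowest without DMSO C. Its median in COV362 lay between -0.0888 and 0.0397, the latter without prexasertib B. With the replicate block and the length and GC offset together, TPI1 turned to 0.134 in PEO1 and 0.301 in the difference, and HIF1A to -0.244 and -0.401. The cause was not tested. No scaling moved the median of all genes by over 0.1. A fit of only 2 groups was not run for the difference, which needs all 4. Depth limits the members near or under 1 CPM (ALDOC, ANKRD37, CA9 in COV362, SLC2A3 in PEO1), where a few counts set the value.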

Other observations

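The branches that leave glycolysis were counted too. Of 11 tested genes of the pentose phosphate pathway, which makes ribose and NADPH from glucose-6-phosphate, 2 were higher (18.2%, beside 14.7% of all tested genes) and 3 lower (27.3%, beside 14.6%) in PEO1 with prexasertib. TKTL1, with a mean of 0.883 CPM in PEO1, was 1 of the higher genes. The largest log2 value of the list was 7.82, both in PEO1 and in the difference between the lines. DESeq2 called 1 gene of the list higher and 4 lower in PEO1. Which libraries carried TKTL1 past the low-count filter was not examined, so the count of higher genes is a description only. TKT, transketolase, fell from 320.9 ± 20.0 to 169.7 ± 19.9 CPM (SD, n = 3, log2 -0.92 ± 0.165, adjusted p = 0.00117). TALDO1, transaldolase, fell from 161.9 ± 24.2 to 95.2 ± 12.7 CPM (log2 -0.77 ± 0.182, adjusted p = 0.0067). None of the 11 was called in COV362 by edgeR, DESeq2 or limma-voom, which called 0.828%, 3.61% and 0.904% of all tested genes. None had an unadjusted p under 0.05, met by 12.6% of tested genes, the lowest being that of PRPS2 (log2 -0.21 ± 0.133).

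Of 34 tested genes of the pyruvate dehydrogenase complex and the TCA cycle, 3 were higher (8.82%, beside 14.7% of all tested genes) and 8 lower (23.5%, beside 14.6%) in PEO1. IDH2, the mitochondrial NADP-dependent isocitrate dehydrogenase, fell from 36.3 ± 4.84 to 16.1 ± 0.195 CPM (log2 -1.17 ± 0.155, adjusted p = 0.00014). PC, pyruvate carboxylase, fell from 9.57 ± 0.94 to 5.06 ± 1.04 CPM (log2 -0.92 ± 0.235, adjusted p = 0.01). None of the 34 was called in COV362 by edgeR, DESeq2 or limma-voom, which called 0.828%, 3.61% and 0.904% of all tested genes. An unadjusted p under 0.05, met there by 12.6% of all tested genes, was met by 1 higher and 4 lower genes. SUCLG2 had the lowest p there (log2 -0.50 ± 0.201, adjusted p = 0.312, and 0.00137 with the replicate block).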
